A study of Mus musculus with 102 samples.

Results

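The 48 genes described here encode the machinery with which a cell copies its DNA and divides: cyclins and their kinases, S phase enzymes, chromosome structure proteins, mitotic kinases, kinetochore and spindle proteins and the proteins of cytokinesis. They were chosen by name. All 48 were found once by symbol among the 18856 genes of the authors' normalized table, were matched by gene ID to the raw table of 53715 genes, and passed the filter on low counts (48 of 48). They were measured by RNA-seq in microglia, the resident macrophages of the central nervous system, sorted by flow cytometry from the lumbar spinal cord of mice.

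There were 6 groups, from mice of 2 genotypes. ABC-imKO mice carry floxed alleles of both cholesterol exporter genes (Abca1fl/fl Abcg1fl/fl) and Cx3cr1-CreERT2, an inducible Cre recombinase driven from Cx3cr1, a gene of microglia and other mononuclear phagocytes; WT mice are wild type, and the labels name no Cre or floxed allele for them. Within each genotype, 1 group received intraperitoneal cisplatin on days 1 and 3 and intrathecal AIBP on day 7, 1 received the same cisplatin and intrathecal saline on day 7, and 1 was naive. Cisplatin is a platinum drug that crosslinks DNA and causes a painful peripheral neuropathy, and AIBP is a secreted protein that binds apolipoprotein A-I. Naive mice had neither cisplatin nor an intrathecal injection, so these 2 cannot be told apart in comparisons with them. There were 3 numbered samples in each group except WT cisplatin AIBP, which had 2 (samples 7 and 9). Ages, the induction of Cre and the number of mice behind a sample are not given in the labels used here, so p-values measure the spread between numbered samples.

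Progress through the cell cycle is driven by cyclin-dependent kinases (CDKs), which are switched on in turn by cyclins E, A and B. E2F factors release the genes of S phase, in which DNA is copied, and the DREAM and MuvB complexes hold back and then activate the genes of G2 and mitosis through promoter elements called CHR and CCAAT boxes. Microglia are long-lived cells that rarely divide in the healthy adult cord and can proliferate after nerve injury or insult. In bulk RNA, fewer cells of a kind and less RNA per cell cannot be told apart, so a level here does not count dividing cells.

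Promoters are shown for 4 genes chosen after the results were seen. They are Rrm1, an S phase gene that rose after cisplatin in both genotypes, and Top2a, which rose in WT. The others are Cdk1 and Ccnb2, the kinase and a cyclin of mitosis, which passed in no comparison. The windows are RefSeq promoters of build GRCm38.p6, 250 bases before to 50 after the start of the gene, read 5′ to 3′ on the gene's strand. Capitals mark the CHR (TTTGAA), the CCAAT box (CCAAT) and E2F motifs (TTTCCCGC, TTTCGCGC, TTTGCCGC or TTTGGCGC), searched on both strands; no match overlapped another in these 4 windows. The regions are chr7:102441445-102441744 (plus strand), chr11:99024140-99024439 (minus strand), chr10:69352863-69353162 (minus strand) and chr9:70421505-70421804 (minus strand).
Rrm1: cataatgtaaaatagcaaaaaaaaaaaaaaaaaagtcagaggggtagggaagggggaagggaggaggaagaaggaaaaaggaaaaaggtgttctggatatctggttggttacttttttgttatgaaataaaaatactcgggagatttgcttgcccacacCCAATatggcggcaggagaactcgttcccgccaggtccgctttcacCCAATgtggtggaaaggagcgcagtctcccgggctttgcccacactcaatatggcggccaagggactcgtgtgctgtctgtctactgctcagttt
Top2a: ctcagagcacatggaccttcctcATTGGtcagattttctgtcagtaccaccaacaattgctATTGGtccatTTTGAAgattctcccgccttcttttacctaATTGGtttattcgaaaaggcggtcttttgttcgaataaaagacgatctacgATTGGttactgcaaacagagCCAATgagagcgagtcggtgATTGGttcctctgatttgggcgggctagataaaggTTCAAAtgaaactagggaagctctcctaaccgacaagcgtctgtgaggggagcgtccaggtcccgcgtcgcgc
Cdk1: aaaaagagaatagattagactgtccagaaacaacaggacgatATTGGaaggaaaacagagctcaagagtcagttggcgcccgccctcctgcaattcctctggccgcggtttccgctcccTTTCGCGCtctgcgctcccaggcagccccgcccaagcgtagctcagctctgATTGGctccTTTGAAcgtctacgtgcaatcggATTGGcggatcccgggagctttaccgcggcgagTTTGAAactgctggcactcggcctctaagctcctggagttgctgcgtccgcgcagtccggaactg
Ccnb2: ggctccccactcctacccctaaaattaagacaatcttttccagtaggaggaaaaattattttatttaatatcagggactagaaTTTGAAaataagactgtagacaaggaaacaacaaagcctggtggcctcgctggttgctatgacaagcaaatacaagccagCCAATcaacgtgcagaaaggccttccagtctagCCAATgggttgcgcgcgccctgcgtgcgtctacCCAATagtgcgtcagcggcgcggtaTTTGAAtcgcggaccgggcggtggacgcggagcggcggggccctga
The Rrm1 window held 2 CCAAT boxes and no CHR. The Top2a window held 2 CHR and 6 CCAAT matches, the Cdk1 window 2 CHR, 3 CCAAT and 1 E2F match, and the Ccnb2 window 2 CHR and 3 CCAAT matches. A promoter was matched for 40 of the 48 members. The CHR was present in 24 of the 40 (60%), against 20.2% of the 27025 genes with a promoter, and the CCAAT box in 29 (72.5%), against 41.1%. Both stood in 20 promoters (50%, against 8.97% of all genes) and an E2F motif in 6 (15%, against 2.6%). The roles differed in count. The CHR was found in 4 of 4 promoters of cytokinesis genes, 4 of 4 of chromosome structure genes and 3 of 3 of spindle genes, and in 1 of 8 of S phase genes (Dnmt1). These are letter matches in a fixed window and do not show binding, and their relation to the levels was not tested.

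The numbered samples had 45.1 to 76.6 mega counts each (median 63.1 mega) and 18791 to 21467 detected genes, and 1.53 to 3.04% of their counts were mitochondrial. Levels are given as CPM, counts per mega counts of the library size scaled by edgeR, with the mean ± SD over samples. Microglial identity genes summed to between 37949 and 79337 CPM in every sample. Gene-level counts of Abca1 were 66.1 to 105 CPM in ABC-imKO naive samples and 87.3 to 114 CPM in WT naive samples, and those of Abcg1 were 41.6 to 66.4 CPM in ABC-imKO naive and 91.7 to 160 CPM in WT naive. The genotypes overlapped for Abca1 and were apart for Abcg1, and reads outside the floxed exons count towards both genes, so the deletion cannot be read from them.

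Cell cycle genes were weakly expressed in naive WT microglia. In that group 37 of the 48 averaged under 5 CPM and 11 under 1 CPM, and 10 had at least 1 sample with no count. Pcna, the sliding clamp of DNA polymerases, stood highest per length of exon (29.02 CPM per kb), followed by the kinase gene Cdk2 (6.76 CPM per kb), the microtubule regulator Stmn1 (5.98 CPM per kb), the thymidylate synthase gene Tyms (5.30 CPM per kb) and Rrm1 (3.44 CPM per kb). Mki67, which encodes the proliferation antigen Ki-67, averaged 0.442 CPM per kb there (4.45 ± 1.94 CPM, SD, n = 3), and Kif4, a chromosome-bound kinesin, had no count in any WT naive sample.

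**Figure D1:**
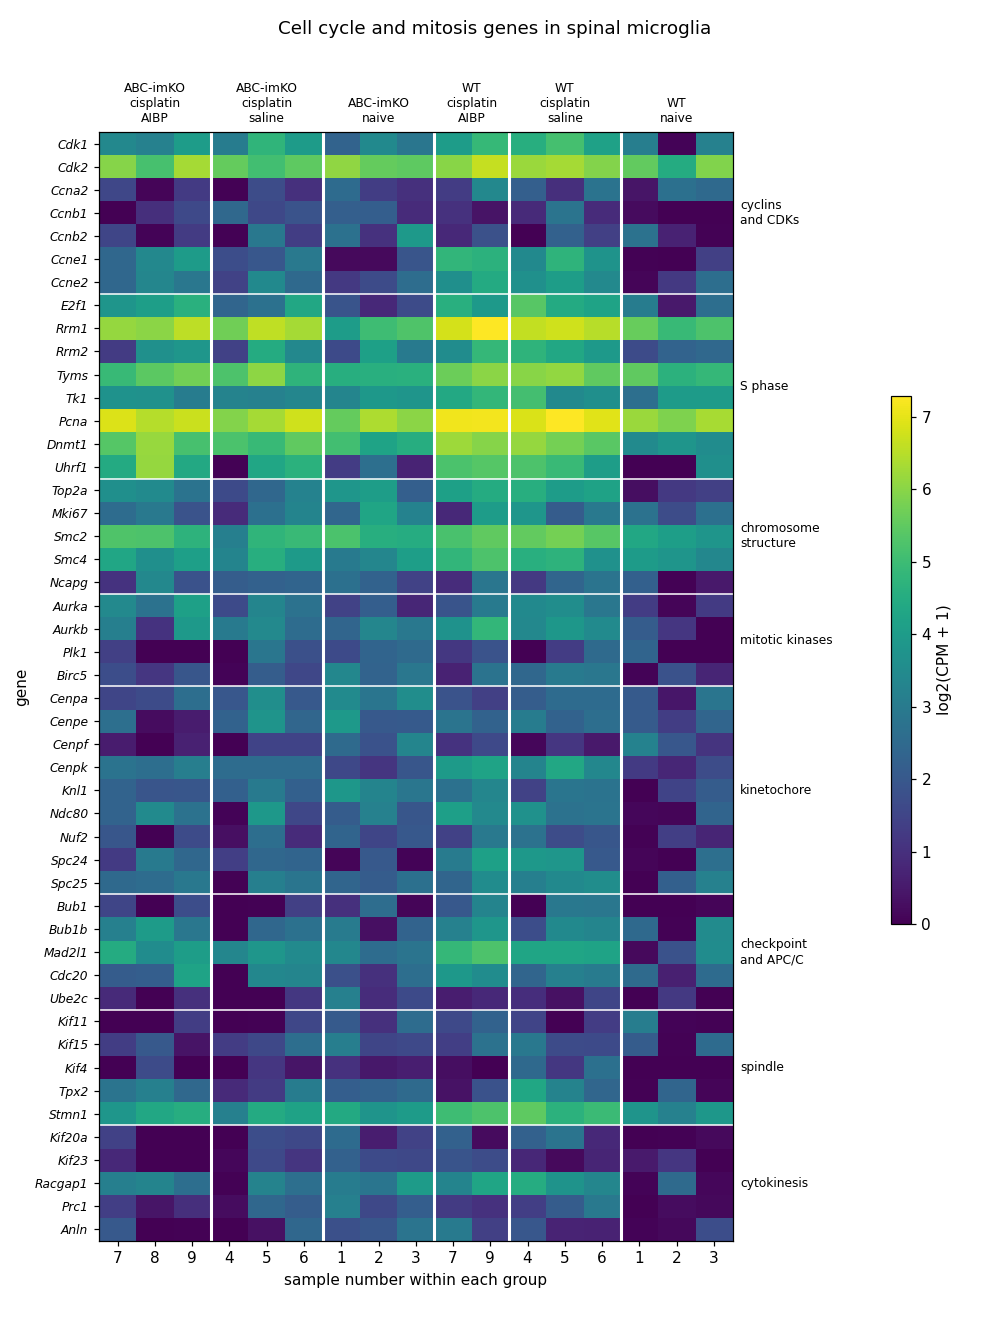
Levels of the 48 genes (down the page, grouped by role) in the 17 numbered samples (across, grouped by genotype and treatment), as log2(CPM + 1); brighter means higher. S phase genes such as Pcna and Rrm1 are bright in all groups and brightest in the cisplatin groups of WT, while many mitotic genes are dark in single samples of every group.

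Counts of the rarer genes came unevenly from the 3 technical libraries of a sample. Across members, 10 had a count in all 51 libraries and 15 in fewer than 40, and for the median member 65.2% of a sample's counts came from its richest library. For Ube2c, the ubiquitin-conjugating enzyme of the anaphase-promoting complex (APC/C), a count was seen in 19 of 51 libraries. For Rrm1 and Pcna it was seen in all 51, with median shares of 43.2% and 42.3% in the richest. The part of this unevenness in the spread between samples was not tested.

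After cisplatin and saline, the median log2 fold change over WT naive microglia was above 0 in all 8 roles, and S phase, chromosome, kinetochore and spindle genes were among those that passed the test. The summed level of the 48 genes was 927, 933 and 730 CPM in WT cisplatin saline samples 4, 5 and 6, against 351, 245 and 385 CPM in WT naive samples 1, 2 and 3. The lowest cisplatin sample lay well above the highest naive one. Of the 48 genes, 5 rose and 0 fell at an adjusted p under 0.05 (edgeR quasi-likelihood test, Benjamini-Hochberg over 20461 genes), where 1.95% of all genes tested rose and 0.953% fell. Without adjustment, 22 were higher at p under 0.05, against 9.48% of all genes, and 0 were lower (8.14%). In 26 the groups did not overlap and cisplatin was higher (12% of all genes), in 0 it was lower (10.7%), and 44 had a log2 fold change above 0 (48.2% of all genes). The members' median log2 fold change was 1.52, beside -0.01 for all genes. DESeq2 called 18, all higher, where it called 7.07% of all genes higher.

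Among the 8 S phase genes 2 rose, Dnmt1 and Rrm1, 6 did not pass, and all 8 were above 0. Dnmt1 (GRCm38 chromosome 9, 20907209 to 20959888), the maintenance methyltransferase that copies DNA methylation onto new strands, stood at 69.3, 53.5 and 42.1 CPM in the WT cisplatin saline samples and 10.3, 12.9 and 10.8 CPM in WT naive samples. The naive samples were nearly level, and every cisplatin sample lay far above them. It averaged 55.0 ± 13.7 CPM after cisplatin and 11.3 ± 1.37 CPM in naive mice (n = 3 each), a log2 fold change of 2.28 ± 0.32 (SE; edgeR adjusted p = 0.00244). Rrm1 (chromosome 7, 102441695 to 102469771), the large subunit of ribonucleotide reductase, which makes deoxynucleotides, stood at 97.1, 108 and 89.3 CPM in the WT cisplatin saline samples and 46.98, 29.1 and 37.5 CPM in WT naive samples. Again no sample overlapped. The log2 fold change was 1.37 ± 0.32 (edgeR adjusted p = 0.0311). This call was lost when any 1 sample other than WT cisplatin saline 4 was left out (adjusted p 0.0623 to 0.128), whereas that of Dnmt1 was kept in 6 of 6 such fits.

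Pcna stood just outside the threshold. It had 115, 155 and 124 CPM in the WT cisplatin saline samples and 71.6, 57.7 and 79.7 CPM in WT naive samples, without overlap (log2 fold change 0.92 ± 0.24, edgeR adjusted p = 0.0586). The other S phase genes were E2f1, the transcription factor of S phase entry (2.61 ± 0.84, edgeR adjusted p = 0.125), Rrm2, the small subunit of ribonucleotide reductase (2.49 ± 0.94), Tyms (0.86 ± 0.33), the thymidine kinase gene Tk1 (0.64 ± 0.48) and Uhrf1, which recruits DNMT1 to replicated DNA (2.84 ± 1.76). None of these 5 passed (edgeR adjusted p 0.125 to 0.505), and Tyms and Tk1 overlapped between the groups.

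**Figure D2:**
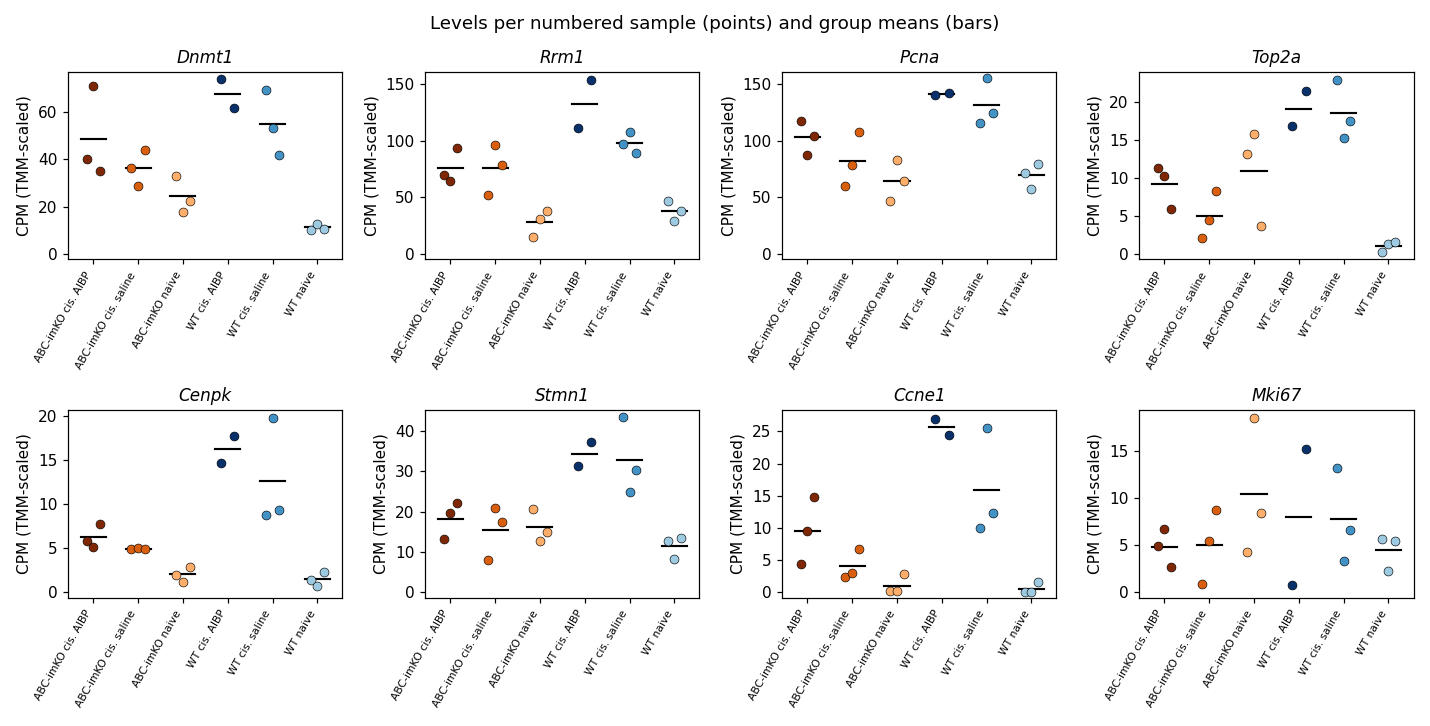
CPM of 8 genes in every numbered sample (points, in order of sample number) with group means (bars), ABC-imKO groups left of WT groups and each treatment left of naive; the y axes are linear and differ in range. Dnmt1, Rrm1, Top2a, Cenpk and Stmn1, the 5 genes called in WT, show no overlap between WT cisplatin saline and WT naive, while Mki67 overlaps throughout.

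Of the 5 chromosome structure genes 1 rose. Top2a (chromosome 11, 98992943 to 99024189), the topoisomerase that untangles sister chromatids, stood at 22.9, 15.3 and 17.5 CPM in the WT cisplatin saline samples and 0.202, 1.30 and 1.59 CPM in WT naive samples. It was near absent in naive WT microglia and present in all 3 cisplatin samples. The log2 fold change was 4.16 ± 0.77 (edgeR adjusted p = 0.0101). The call was kept in 6 of 6 fits that left out 1 sample, but was lost under some other ways of processing. Smc2, a core subunit of condensin, had 45.2, 53.4 and 41.1 CPM in the WT cisplatin saline samples and 19.8, 16.1 and 12.99 CPM in WT naive samples, without overlap and just outside the threshold (1.52 ± 0.39, edgeR adjusted p = 0.053). Its partner Smc4 had 23.4, 25.3 and 11.8 CPM in the WT cisplatin saline samples and 14.9, 12.98 and 9.28 CPM in WT naive samples, which overlap (0.70 ± 0.42, edgeR adjusted p = 0.393). Mki67, by contrast, stood at 13.2, 3.36 and 6.67 CPM in the WT cisplatin saline samples and 5.66, 2.21 and 5.48 CPM in WT naive samples. The groups overlapped and the log2 fold change was 0.80 ± 0.95 (edgeR adjusted p = 0.71). The condensin gene Ncapg was at 1.47 ± 1.21 (edgeR adjusted p = 0.554).

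Among the 9 kinetochore genes Cenpk alone rose. Cenpk (chromosome 13, 104228611 to 104252392), a subunit of the centromere-associated network that holds the kinetochore on the chromosome, stood at 8.82, 19.7 and 9.40 CPM in the WT cisplatin saline samples and 1.37, 0.730 and 2.26 CPM in WT naive samples. All cisplatin samples were above all naive ones (3.12 ± 0.53, edgeR adjusted p = 0.00675). This call was also kept in 6 of 6 fits that left out 1 sample, but was lost under some other ways of processing. Ndc80, which binds microtubules in the outer kinetochore, stood at 11.9, 5.69 and 5.98 CPM in the WT cisplatin saline samples and 0.101, 0.0712 and 4.12 CPM in WT naive samples, without overlap (2.45 ± 1.47, edgeR adjusted p = 0.393). Its partners Nuf2, Spc24 and Spc25, the scaffold Knl1, the centromeric histone Cenpa and the motor Cenpe were at log2 fold changes of 0.44 to 2.48, none called. Cenpf, a large kinetochore protein of G2 and mitosis, had 0.0952, 1.22 and 0.409 CPM in the WT cisplatin saline samples and 8.43, 2.92 and 1.15 CPM in WT naive samples. These overlap, and the change was not called (-2.85 ± 1.43, edgeR adjusted p = 0.316).

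Of the 5 spindle genes Stmn1 rose. Stmn1 (chromosome 4, 134468320 to 134473843), which encodes the tubulin-binding protein stathmin, stood at 43.5, 24.8 and 30.4 CPM in the WT cisplatin saline samples and 12.7, 8.26 and 13.5 CPM in WT naive samples. The groups were apart (1.52 ± 0.37, edgeR adjusted p = 0.0418), but leaving out any 1 of the 6 samples ended the call (adjusted p 0.0799 to 0.155). Kif4 had 4.67, 1.29 and 5.41 CPM in the WT cisplatin saline samples and 0 in every WT naive sample. With the naive group set at a floor of 3 counts over its samples, this is at least 209-fold, a bound for counting error only. A count of Kif4 was seen in 17 of 51 libraries, with a median share of 99.4% in the richest library of a sample. Kif4 was not called (edgeR adjusted p = 0.104). Tpx2, which activates Aurora A on the spindle, stood at 19.3, 8.65 and 4.30 CPM in the WT cisplatin saline samples and 0.0202, 4.22 and 0.0796 CPM in WT naive samples, without overlap (2.90 ± 1.42, edgeR adjusted p = 0.304). The kinesin genes Kif11 (-1.21 ± 2.34) and Kif15 (0.41 ± 1.19) were not called.

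No gene of the cyclin, mitotic kinase, checkpoint or cytokinesis roles passed in WT, although several were apart between the groups. Ccne1, the cyclin that opens S phase, stood at 10.1, 25.5 and 12.3 CPM in the WT cisplatin saline samples and 0.0202, 0 and 1.61 CPM in WT naive samples (4.86 ± 1.56, edgeR adjusted p = 0.125). Ccne2, the other cyclin E, stood at 11.5, 15.5 and 9.69 CPM in the WT cisplatin saline samples and 0.0809, 1.30 and 5.16 CPM in WT naive samples (2.49 ± 0.99, edgeR adjusted p = 0.221). Both cyclins E were thus low in naive WT microglia and above that range in all 3 cisplatin samples. Ccnb1, a cyclin of mitosis, stood at 0.838, 5.998 and 0.850 CPM in the WT cisplatin saline samples and 0.162, 0.0178 and 0.0159 CPM in WT naive samples (5.28 ± 1.71, edgeR adjusted p = 0.127). The kinases Cdk1 (2.22 ± 0.96) and Cdk2 (0.74 ± 0.35) did not overlap between groups, whereas those of the cyclin genes Ccna2 (0.01 ± 1.35) and Ccnb2 (-0.22 ± 1.87) did.

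The Aurora kinases and their partner were apart as well. Aurka, the Aurora kinase of centrosomes, had 9.90, 10.9 and 6.47 CPM in the WT cisplatin saline samples and 1.44, 0.0712 and 1.37 CPM in WT naive samples (3.24 ± 0.94, edgeR adjusted p = 0.0847). Aurkb, the kinase of the chromosomal passenger complex, had 9.66, 13.5 and 10.1 CPM in the WT cisplatin saline samples and 3.32, 1.23 and 0.0159 CPM in WT naive samples (2.87 ± 1.10, edgeR adjusted p = 0.199). Birc5, which encodes survivin of the same complex, had 4.38, 6.88 and 6.42 CPM in the WT cisplatin saline samples and 0.0606, 2.58 and 0.701 CPM in WT naive samples (2.40 ± 1.27, edgeR adjusted p = 0.334). In all 3 genes each cisplatin sample lay above each naive sample. Plk1, the Polo-like kinase, was at 0.59 ± 2.41.

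Among checkpoint genes Mad2l1, which delays anaphase until chromosomes are attached, stood at 18.5, 18.5 and 17.8 CPM in the WT cisplatin saline samples and 0.142, 2.58 and 10.6 CPM in WT naive samples (2.03 ± 0.84, edgeR adjusted p = 0.236). Bub1, a kinase of the same checkpoint, stood at 0, 6.53 and 6.41 CPM in the WT cisplatin saline samples and 0, 0 and 0.0796 CPM in WT naive samples (edgeR adjusted p = 0.226). Ube2c stood at 0.933, 0.257 and 1.85 CPM in the WT cisplatin saline samples and 0, 1.33 and 0 CPM in WT naive samples (1.18 ± 2.10, edgeR adjusted p = 0.824). Mad2l1 was thus apart between the groups, and Bub1 and Ube2c overlapped. Bub1b (0.49 ± 1.53) and Cdc20, the activator of the APC/C (0.93 ± 1.24), were not called either.

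Cytokinesis genes summed to 23.8 ± 6.57 CPM in the WT cisplatin saline samples and 3.16 ± 2.89 CPM in WT naive samples (n = 3 each). Prc1, which bundles midzone microtubules, stood at 1.56, 3.38 and 6.73 CPM in the WT cisplatin saline samples and 0, 0.178 and 0.111 CPM in WT naive samples (5.30 ± 1.37, edgeR adjusted p = 0.0527). Racgap1, a subunit of centralspindlin, stood at 21.9, 12.4 and 9.14 CPM in the WT cisplatin saline samples and 0.0606, 4.72 and 0.0955 CPM in WT naive samples (3.15 ± 1.47, edgeR adjusted p = 0.281). Kif20a, the midzone kinesin, stood at 3.81, 5.95 and 0.784 CPM in the WT cisplatin saline samples and 0, 0.0356 and 0.127 CPM in WT naive samples (5.94 ± 2.44, edgeR adjusted p = 0.235). These 3 did not overlap between groups, unlike the centralspindlin motor Kif23 (-0.05 ± 1.5) and the anillin gene Anln (0.74 ± 1.95). Exons of Kif20a, Ube2c, Ccne2, Kif4, Ncapg, Ccna2, Prc1, Plk1 and Cenpk share 29.3% to 4.45% of their bases with a gene on the opposite strand, and the strand setting of the counting is not given in the sources used here, so part of these counts may belong to the neighbours. Ccnb1, Ccnb2, Tyms, Pcna and Kif4 have named pseudogenes that could take or give reads.

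Monocyte markers differed between these samples. The list of 12 summed to 249, 1190 and 799 CPM in WT cisplatin saline samples 4, 5 and 6, against 5.60, 17.5 and 84.1 CPM in WT naive samples 1, 2 and 3, and none of the 12 passed (edgeR; 7 were higher and 0 lower at an unadjusted p under 0.05). Without fibronectin (Fn1), the remaining 11 summed to 1.12, 160 and 127 CPM in WT cisplatin saline 4, 5 and 6, against 1.29, 5.002 and 10.02 CPM in WT naive samples. With Fn1, sample 4 thus lay above all naive samples. Without it, sample 4 was just below the lowest of them, with the monocyte receptor gene Ccr2 at 0.324 CPM and Ly6c2 at 0.0190 CPM. In samples 5 and 6 Ccr2 was at 95.3 and 62.8 CPM and Ly6c2 at 7.90 and 13.9 CPM. With sample 4 as the only sample of its group, the log2 fold change was 2.66 for Dnmt1, 4.51 for Top2a, 2.65 for Cenpk, 1.97 for Stmn1 and 1.41 for Rrm1. Sample 4 was part of the calls of these 5 genes and lay above the WT naive samples in each. Values above 0 were thus given in advance. Bub1 turned to -3.91 in the same fit. A group of 1 sample has no spread of its own, so no call is drawn from this fit. Nor does the fit show the part of monocyte markers in the result. Neutrophil genes summed to 0.133, 23.5 and 14.6 CPM in WT cisplatin saline 4, 5 and 6, against 0 to 0.494 CPM in WT naive samples. Mmp8 gave 12.7 CPM of this in sample 5 and 8.89 CPM in sample 6. S100a9, Ly6g and Retnlg had no count in any of the 17 samples. Border macrophage genes summed to 1.10, 54.1 and 34.96 CPM in WT cisplatin saline 4, 5 and 6, against 0.955 to 1.80 CPM in WT naive samples. Both lists were thus high in samples 5 and 6 and at naive levels in sample 4, and none of their tested genes passed (edgeR; 3 neutrophil and 2 border macrophage genes were higher at an unadjusted p under 0.05). T and NK cell genes stayed at 5.29 CPM or less and erythroid genes at 3.22 CPM or less in every sample. Endothelial markers summed to 9.98 to 13.7 CPM in the WT cisplatin saline samples and 25.4 to 44.7 CPM in WT naive samples, and B cell markers to 584 to 1026 CPM in the WT cisplatin saline samples and 1266 to 1568 CPM in WT naive samples. Microglial identity genes summed to 44355 to 56103 CPM in the WT cisplatin saline samples and 68351 to 79337 CPM in WT naive samples, and 5 of these 14 fell, as did 1 of 7 astrocyte genes, the glutamate transporter gene Slc1a3 (-1.55 ± 0.24, edgeR adjusted p = 0.00404). The mitochondrial share of counts was 2.18 to 2.57% in the WT cisplatin saline samples and 1.61 to 2.09% in WT naive samples, without overlap. The part of these shifts in the result was not tested.

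**Figure D3:**
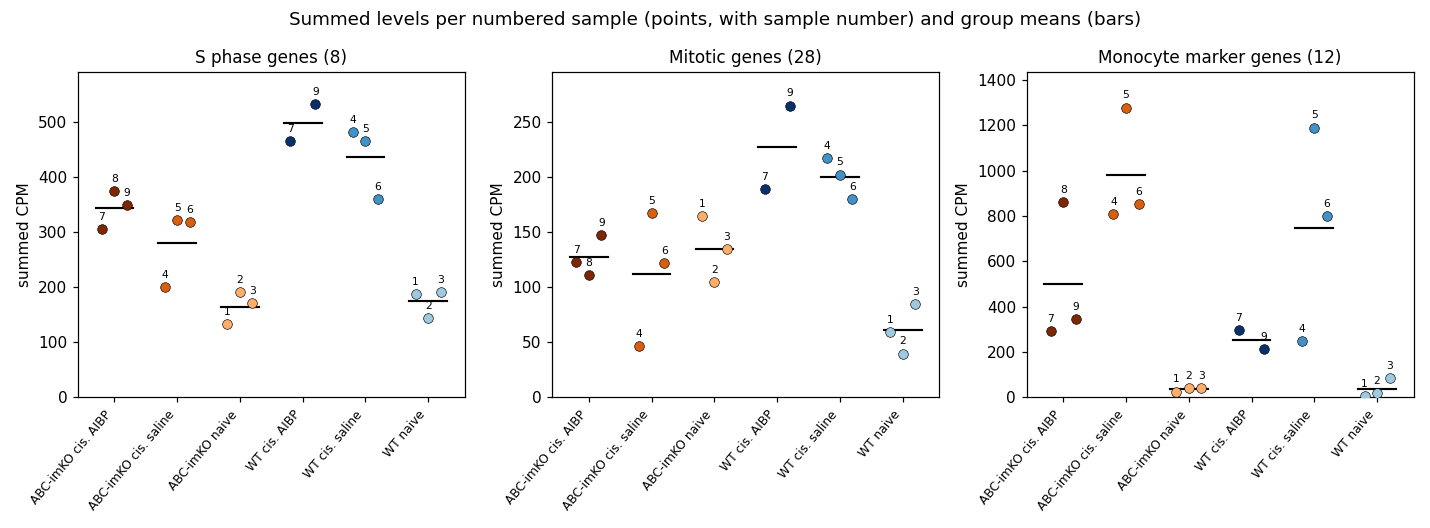
Summed CPM of the 8 S phase genes, of 28 mitotic genes (mitotic kinases, kinetochore, checkpoint, spindle and cytokinesis) and of 12 monocyte markers in each numbered sample (points, with sample number) and group means (bars). In the monocyte panel WT cisplatin saline 4, at 249 CPM, lies below samples 5 and 6 and above all naive samples. The ABC-imKO cisplatin saline samples are high in that panel. In the mitotic panel they lie below every WT cisplatin sample.

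Further replication genes rose along with the members. In a list of 29 further replication genes, 14 rose and 0 fell in WT cisplatin saline over WT naive, with a median log2 fold change of 2.44 over the list. Of all genes tested, 1.95% rose and 0.953% fell. This list and those below were chosen with earlier results of these data known, so their counts are not independent support. Mcm2, a subunit of the replicative helicase, stood at 126, 263 and 184 CPM in the WT cisplatin saline samples and 4.06, 16.4 and 35.9 CPM in WT naive samples (3.34 ± 0.62, edgeR adjusted p = 0.0101). The other 13 were Mcm3, Mcm4, Mcm5, Mcm6, Mcm7, Cdt1, Gins1, Gins2, Orc6, Rfc4, Lig1, Dut and Chek1. In a list of 46 further mitosis genes 3 rose and 0 fell (median 2.17). These were Tacc3, a spindle protein, at 39.03, 50.9 and 48.03 CPM in the WT cisplatin saline samples and 9.22, 14.04 and 9.51 CPM in WT naive samples (2.07 ± 0.53, edgeR adjusted p = 0.0482), the kinase gene Melk and the cohesin protector Sgo1. Melk had 874 counts in WT cisplatin saline and 0 in WT naive samples, at least 279-fold with the same floor (edgeR adjusted p = 0.02), and Sgo1 had 668 counts in WT cisplatin saline and 2 in WT naive samples, a ratio of 320 (95% exact counting interval 88.2 to 2647; edgeR adjusted p = 0.045). Cdk4, the G1 kinase, was 1 of 9 cell cycle entry genes and rose by 1.08 ± 0.23 on the log2 scale (edgeR adjusted p = 0.0208). None of 17 cell cycle brakes and none of 10 genes of G2/M transcription passed (edgeR; 3 higher and 5 lower, and 1 higher and 0 lower, at an unadjusted p under 0.05). Among the brakes, Cdkn1a, which encodes the CDK inhibitor p21, had 173, 240 and 185 CPM in the WT cisplatin saline samples and 52.4, 81.8 and 101 CPM in WT naive samples (1.34 ± 0.37, edgeR adjusted p = 0.0665). In ABC-imKO it had 272, 163 and 265 CPM in the cisplatin saline samples and 138, 265 and 318 CPM in the naive samples, which overlap (-0.04 ± 0.36, edgeR adjusted p = 0.983).

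In ABC-imKO microglia 1 of the 48 genes, Rrm1, rose after cisplatin and saline, a share of 2.08% beside 2.42% of all genes tested, and the summed level of the mitotic genes overlapped with that of naive mice. The summed level of the 48 genes was 331, 635 and 581 CPM in ABC-imKO cisplatin saline samples 4, 5 and 6, against 449, 431 and 431 CPM in ABC-imKO naive samples 1, 2 and 3, so the groups overlapped. None of the 48 fell, where 1.99% of all genes tested did. Without adjustment, 4 were higher at p under 0.05 (8.77% of all genes) and 0 lower (9.37%), and 22 of the 48 had a log2 fold change above 0 (46.6% of all genes). In 4 the groups did not overlap and cisplatin was higher (12% of all genes), and in 2, Birc5 and Cenpf, it was lower (11.5%). The members' median was -0.25, beside -0.04 for all genes. DESeq2 called 3, Rrm1, E2f1 and Cenpk, all higher, where it called 7.06% of all genes higher.

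Rrm1 stood at 51.7, 96.3 and 78.4 CPM in the ABC-imKO cisplatin saline samples and 15.4, 31.3 and 37.7 CPM in ABC-imKO naive samples. The groups did not overlap, and the log2 fold change was 1.42 ± 0.32 (edgeR adjusted p = 0.0192). The call was lost without ABC-imKO naive 1 or 2 or ABC-imKO cisplatin saline 5 (adjusted p 0.0592 to 0.0916). S phase genes summed to 199, 322 and 319 CPM in the ABC-imKO cisplatin saline samples and 133, 191 and 170.5 CPM in ABC-imKO naive samples, without overlap. E2f1 (2.36 ± 0.84, edgeR adjusted p = 0.143), Tyms (0.88 ± 0.33, edgeR adjusted p = 0.172) and the kinetochore gene Cenpk (1.29 ± 0.49, edgeR adjusted p = 0.177) were also apart between the groups, but were not called. Cenpk was level in the ABC-imKO cisplatin saline samples, at 4.92, 4.98 and 4.96 CPM, against 1.99, 1.20 and 2.86 CPM in ABC-imKO naive samples.

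The summed level of mitotic genes in ABC-imKO was 46.4 to 168 CPM in cisplatin saline and 105 to 165 CPM in naive samples. Top2a stood at 2.09, 4.45 and 8.35 CPM in the ABC-imKO cisplatin saline samples and 13.2, 15.7 and 3.63 CPM in ABC-imKO naive samples, which overlap (-1.13 ± 0.68, edgeR adjusted p = 0.395). Mki67 stood at 0.867, 5.43 and 8.71 CPM in the ABC-imKO cisplatin saline samples and 4.32, 18.5 and 8.39 CPM in ABC-imKO naive samples (-1.05 ± 0.95, edgeR adjusted p = 0.611). All 5 spindle genes and all 5 cytokinesis genes had log2 fold changes below 0, and none passed. Sample 4 of ABC-imKO cisplatin saline was the lowest of its group in Top2a, Mki67 and the mitotic sum. The 12 monocyte markers summed to 810, 1278 and 852 CPM in ABC-imKO cisplatin saline 4, 5 and 6, against 25.8 to 42.6 CPM in ABC-imKO naive samples, and without Fn1 to 123, 115 and 87.4 CPM, against 2.30 to 8.88 CPM. Chil3 gave 116, 106 and 76.9 CPM of the sums without Fn1, against 0.103 to 4.89 CPM in ABC-imKO naive samples. Ccr2 was at 0.227, 4.88 and 6.74 CPM, against 0.305 to 1.97 CPM. Ly6c2 was at 6.49, 1.11 and 0.0752 CPM, against 0 to 0.0167 CPM. Fn1 alone of the 12 rose (6.48 ± 1.43, edgeR adjusted p = 0.0184), averaging 816.6 CPM in ABC-imKO cisplatin saline and 9.17 CPM in ABC-imKO naive samples. Of the 14 microglial identity genes 10 fell, and they summed to 37949 to 49522 CPM in the ABC-imKO cisplatin saline samples and 58440 to 76509 CPM in ABC-imKO naive samples. The immunoglobulin gene Ighm (-1.46 ± 0.34, edgeR adjusted p = 0.0259) and the myelin gene Mbp (-1.66 ± 0.40, edgeR adjusted p = 0.029) fell as well. Endothelial markers summed to 2.01 to 12.6 CPM in the ABC-imKO cisplatin saline samples and 19.8 to 53.6 CPM in ABC-imKO naive samples. Neutrophil genes summed to 1.72 to 6.04 CPM in ABC-imKO cisplatin saline and 0.0643 to 1.19 CPM in ABC-imKO naive samples, without overlap. S100a8 gave 3.57, 5.98 and 1.69 CPM of this in ABC-imKO cisplatin saline 4, 5 and 6. For border macrophage genes the sums were 7.99 to 12.7 CPM and 2.31 to 8.61 CPM, which overlap. None of the tested genes of these 2 lists passed (edgeR). The mitochondrial share of counts was 2.26 to 3.04% in the ABC-imKO cisplatin saline samples and 1.53 to 2.14% in ABC-imKO naive samples, without overlap. The part of these shifts in the result was not tested. Of the 29 further replication genes 2 rose in ABC-imKO, Mcm2 (2.21 ± 0.59, edgeR adjusted p = 0.0473) and the DNA ligase gene Lig1 (1.64 ± 0.42, edgeR adjusted p = 0.0402), and 16 were higher at an unadjusted p under 0.05. Of all genes tested in ABC-imKO, 2.42% rose and 8.77% were higher at an unadjusted p under 0.05. None of the further mitosis, entry, brake or G2/M transcription genes passed there (edgeR; 4, 2, 2 and 0 were higher and 3, 0, 5 and 1 lower at an unadjusted p under 0.05).

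**Figure D4:**
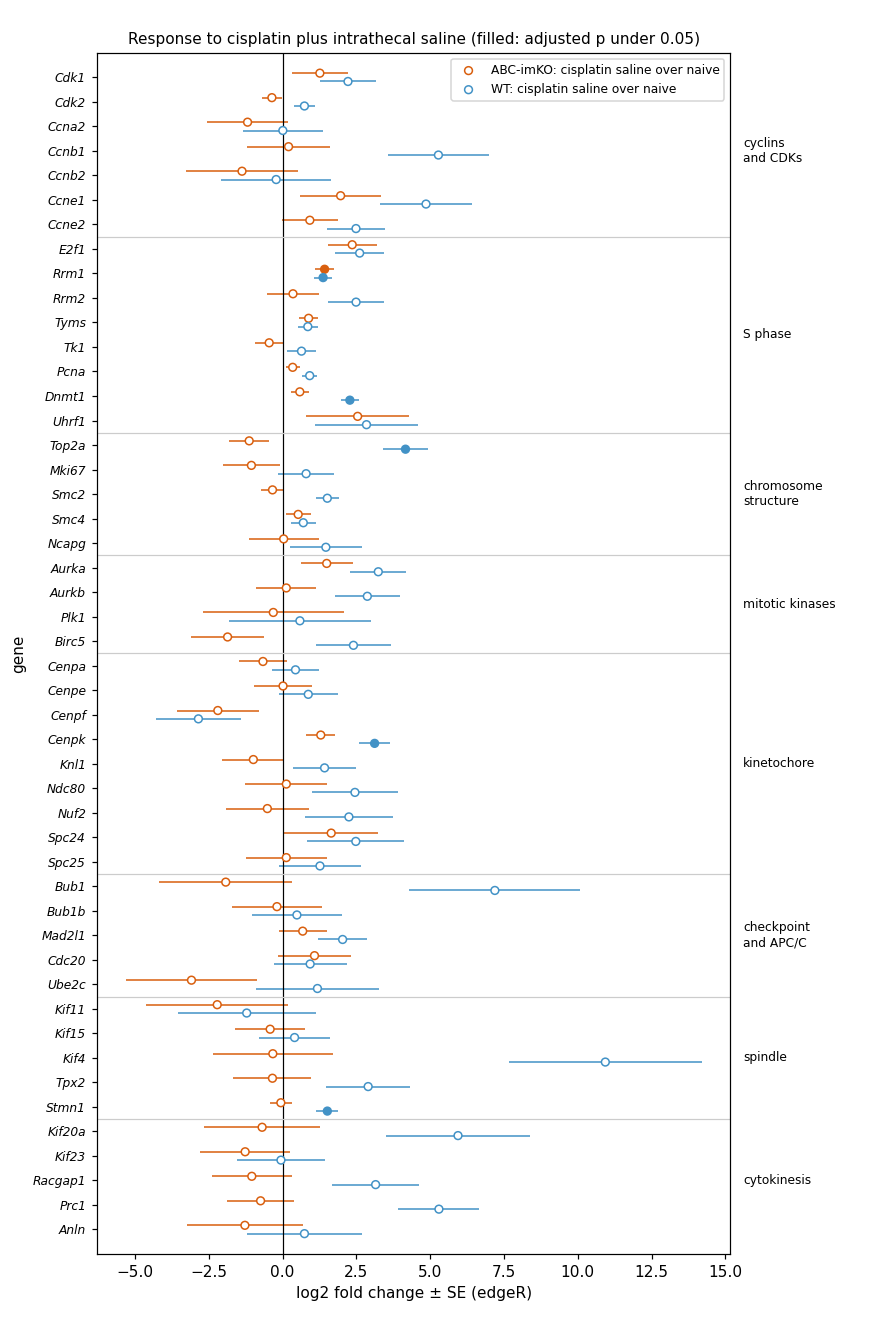
Log2 fold change ± SE (edgeR) of cisplatin saline over naive for each of the 48 genes, in ABC-imKO (orange, upper of each pair) and WT (blue, lower), by role; filled points passed at an adjusted p under 0.05. The WT value lies right of the ABC-imKO value for 44 of 48 genes, Rrm1 coincides, and the WT point of Kif4 is a fitted value against a group with no counts.

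The difference between the genotypes in the response to cisplatin was tested directly as an interaction. The log2 fold change was smaller in ABC-imKO than in WT for 44 of the 48 genes, and 22 were above 0 in both, 4 below 0 in both and 22 below 0 in ABC-imKO and above 0 in WT. No member passed the interaction test by edgeR, where 0% of all genes tested passed; at an unadjusted p under 0.05, 0 members had a higher response in ABC-imKO (3.25% of all genes) and 12 a lower one (4.38%), and 4 of the 48 differences were above 0 (47.6% of all genes). DESeq2 called 3, Dnmt1, Top2a and Prc1, all with the lower response in ABC-imKO, where it called 0.703% of all genes lower. The smallest p was that of Top2a (-5.29 ± 1.01, p = 0.000112 before and 0.374 after adjustment), then Dnmt1 (-1.70 ± 0.43, p = 0.00137 before and 0.517 after) and Prc1 (-6.04 ± 1.74, p = 0.00354 before and 0.607 after). For Rrm1 the difference was 0.05 ± 0.44. The median of the members was -1.5, beside -0.05 for all genes, and by role it was -4.19 for cytokinesis, -2.25 for mitotic kinases and -0.44 for S phase.

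Both naive groups enter this difference, and the summed level of the mitotic genes was higher in ABC-imKO naive than in WT naive microglia, although no member passed the test. Naive samples summed to 449, 431 and 431 CPM over the 48 genes in ABC-imKO and 351, 245 and 385 CPM in WT, and the 28 mitotic genes to 105 to 165 CPM in ABC-imKO and 39.8 to 84.7 CPM in WT. Neither sum overlapped between the genotypes. S phase genes summed to 133 to 191 CPM in ABC-imKO naive and 144 to 192 CPM in WT naive samples, which overlap. By edgeR 0.00489% of all genes passed in ABC-imKO naive over WT naive, and 0 members did; 8 were higher (3.52% of all genes) and 0 lower (2.44%) at an unadjusted p under 0.05, and 38 had a log2 fold change above 0 (49.6%). DESeq2 called 4 members, all higher, where it called 0.802% of all genes higher. Top2a stood at 13.2, 15.7 and 3.63 CPM in ABC-imKO naive and 0.202, 1.30 and 1.59 CPM in WT naive samples. These did not overlap (3.39 ± 0.74, edgeR adjusted p = 0.532), nor did Prc1, at 7.94, 1.99 and 3.55 CPM in ABC-imKO naive and 0, 0.178 and 0.111 CPM in WT naive samples (5.50 ± 1.38, edgeR adjusted p = 0.746). Dnmt1 stood at 32.8, 17.9 and 22.3 CPM in ABC-imKO naive and 10.3, 12.9 and 10.8 CPM in WT naive samples (1.11 ± 0.31, edgeR adjusted p = 0.789). Ccnb1, Dnmt1, Top2a and Prc1 were the 4 called by DESeq2. In all, 14 members were apart and higher in ABC-imKO naive samples (5.49% of all genes), all 5 cytokinesis genes among them, and 1 was apart and lower, Tyms (4.14%).

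After cisplatin and saline the order of the sums was turned round. The 48 genes summed to 331 to 635 CPM in ABC-imKO and 730 to 933 CPM in WT samples. No member passed in ABC-imKO cisplatin saline over WT cisplatin saline by edgeR, where 0.044% of all genes did, or by DESeq2, where 2.73% did. At an unadjusted p under 0.05, 0 were higher (3.85% of all genes) and 7 lower (5.13%): Stmn1, Smc2, Pcna, Cenpk, Top2a, Tk1 and Cdk2. Stmn1 had 8.001, 21.04 and 17.3 CPM in the ABC-imKO cisplatin saline samples and 43.5, 24.8 and 30.4 CPM in WT cisplatin saline samples, without overlap (-1.09 ± 0.37, edgeR adjusted p = 0.43). In 12 members the ABC-imKO samples all lay below the WT samples (6.4% of all genes) and in 0 above (6.1%), 9 had a log2 fold change above 0 (48.2%), and the median was -0.74, beside -0.01 for all genes.

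The order was the same after AIBP, in 3 ABC-imKO and 2 WT samples. The 48 genes summed to 586 to 668 CPM in ABC-imKO cisplatin AIBP and 855 and 1106 CPM in WT cisplatin AIBP samples, without overlap. No member passed by edgeR, where 0% of all genes did, or by DESeq2, where 1.33% did. At an unadjusted p under 0.05, 0 were higher (2.99% of all genes) and 5 lower (3.36%): Rrm1 (-0.80), Tk1 (-1.19), Smc4 (-1.02), Cenpk (-1.38) and Stmn1 (-0.91). In 17 members the ABC-imKO samples lay below the WT samples (11.4% of all genes) and in 1 above (10.8%), 6 had a log2 fold change above 0 (50.9%), and the median was -0.95, beside 0.02 for all genes.

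No member passed for AIBP against saline in either genotype. In WT cisplatin AIBP over WT cisplatin saline, 0 of 48 passed by edgeR or DESeq2, 0% of all genes tested passed by edgeR and 0.653% by DESeq2, and 0 members were higher (1.64% of all genes) or lower (2.07%) at an unadjusted p under 0.05. In 6 the groups were apart and higher (9.1%), in 4 apart and lower (9.14%), and 28 were above 0 (45.8%). The sum was 855 and 1106 CPM in WT cisplatin AIBP 7 and 9, against 927, 933 and 730 CPM in WT cisplatin saline, and the median log2 fold change was 0.08. In ABC-imKO cisplatin AIBP over ABC-imKO cisplatin saline, 0 of 48 passed by edgeR or DESeq2, 0.00977% of all genes passed by edgeR and 1.1% by DESeq2, and 0 members were higher (3.39%) or lower (3.23%) at an unadjusted p under 0.05. In 2 the groups were apart and higher (4.17%), in 0 apart and lower (4.43%), and 30 were above 0 (49.4%). The sum was 586, 624 and 668 CPM in ABC-imKO cisplatin AIBP and 331, 635 and 581 CPM in ABC-imKO cisplatin saline samples, with a median log2 fold change of 0.24. The errors are large. Top2a differed by 0.04 ± 0.75 in WT and by 0.89 ± 0.68 in ABC-imKO, and Mki67 was 0.796 CPM in WT cisplatin AIBP 7 and 15.2 CPM in WT cisplatin AIBP 9. The genotype difference in this response passed for 0 members by edgeR or DESeq2, with 0% of all genes past the threshold by edgeR and 0.813% by DESeq2. At an unadjusted p under 0.05, 0 members had a larger (3.45% of all genes) or a smaller (2.83%) response in ABC-imKO, and 24 of the differences were above 0 (53.6%).

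The AIBP groups can also be set beside the naive groups, which the saline comparisons above share. In WT cisplatin AIBP over WT naive 4 of 48 rose and 0 fell, where 1.06% of all genes rose and 0.191% fell: Dnmt1 (2.58 ± 0.34, edgeR adjusted p = 0.00434), Cenpk (3.48 ± 0.56, 0.0102), Rrm1 (1.81 ± 0.34, 0.0219) and Top2a (4.21 ± 0.80, 0.0219). Dnmt1 stood at 73.9 and 61.7 CPM, Cenpk at 14.7 and 17.7 CPM, Rrm1 at 111 and 154 CPM and Top2a at 16.8 and 21.4 CPM in WT cisplatin AIBP 7 and 9. All of these lay above the WT naive samples given before. With 2 samples in the group the calls depended on single samples: none of the 4 was left without WT cisplatin AIBP 7, 1 was left without WT cisplatin AIBP 9 or WT naive 1, and 2 without WT naive 2. The 12 monocyte markers summed to 298 and 213 CPM in WT cisplatin AIBP 7 and 9, against 5.60 to 84.1 CPM in WT naive samples, without overlap, and without Fn1 they summed to 8.35 and 16.8 CPM, against 1.29 to 10.02 CPM. None of the 12 passed (edgeR; 1 was higher and 0 lower at an unadjusted p under 0.05). The part of these markers in the result was not tested. At an unadjusted p under 0.05, 19 members were higher (7.96% of all genes) and 0 lower (6.38%). In 31 the groups were apart and higher (17%), in 0 apart and lower (16.3%), and 44 were above 0 (44.9%). The median was 1.95, beside -0.07 for all genes, and DESeq2 called 14, all higher, where it called 5.02% of all genes higher. Of the 29 further replication genes 13 rose, beside 1.06% of all genes tested. Cdk4, Melk and Rbl1, a brake of the retinoblastoma family, rose as well.

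In ABC-imKO cisplatin AIBP over ABC-imKO naive 1 of 48 rose and 0 fell, where 1.81% of all genes rose and 0.87% fell. This was Rrm1 again, at 69.9, 64.2 and 93.2 CPM in ABC-imKO cisplatin AIBP and 15.4, 31.3 and 37.7 CPM in ABC-imKO naive samples (1.43 ± 0.32, edgeR adjusted p = 0.0272). The call was kept in 2 of 6 fits that left out 1 sample, and was lost without ABC-imKO naive 1 or 2 or ABC-imKO cisplatin AIBP 8 or 9 (adjusted p 0.0614 to 0.0993). The 12 monocyte markers summed to 294, 860 and 346 CPM in ABC-imKO cisplatin AIBP 7, 8 and 9, against 25.8 to 42.6 CPM in ABC-imKO naive samples. Without Fn1 they summed to 14.4, 116 and 21.8 CPM, against 2.30 to 8.88 CPM, without overlap. Chil3 gave 13.3, 102 and 15.7 CPM of these sums, and Ccr2 0.271, 5.995 and 3.59 CPM. Fn1 rose (5.46 ± 1.36, edgeR adjusted p = 0.0469). Of the 14 microglial identity genes 7 fell. The part of these shifts in the result was not tested. At an unadjusted p under 0.05, 8 were higher (8.37% of all genes), 5 of them S phase genes, and 1 was lower (8.24%), Cenpf (-3.94 ± 1.51). DESeq2 called 5 higher and 1 lower, where it called 6.23% of all genes higher and 4.74% lower. The groups were apart and higher in 10 (10.1% of all genes), which were Rrm1, E2f1, Tyms, Pcna, Dnmt1, Uhrf1, Ccne1, Aurka, Cenpk and Mad2l1. They were apart and lower in 7 (9.77%), which were Cenpf, Plk1, Birc5, Cenpa, Knl1, Kif23 and Prc1. Of the 48, 26 were above 0 (45.4%), and the median was 0.15, beside -0.07 for all genes. Of the 29 further replication genes 9 rose, beside 1.81% of all genes tested, led by Lig1 (2.6 ± 0.44, edgeR adjusted p = 0.00627). None of the 46 further mitosis genes passed (edgeR, with 2 higher and 4 lower at an unadjusted p under 0.05).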

How the data were processed

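Polyadenylated RNA of sorted microglia was amplified from oligo(dT) and sequenced as read pairs, per the labels' protocols. Per the submitters' processing notes, bcl2fastq, STAR 2.6.0a, FastQC 0.11.17, MultiQC 1.7 and DESeq2 were used with the GRCm38 build; which tool counted reads, and with what strand setting, is not given in the sources used here. Deposited by the authors were raw counts per gene for 102 runs. The authors also deposited a normalized signal, raw counts divided by 1 size factor per run (0.437 to 1.62), which served only to find the members.

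Runs were summed to 17 numbered samples, each of 3 technical replicates on 2 lanes. Tests used edgeR 4.0.16 in R 4.3.3: TMM scaling, filterByExpr, a quasi-likelihood model of the 6 group means (17 samples, leaving 11 residual degrees of freedom) and Benjamini-Hochberg adjustment over 20461 genes at 0.05, two-sided, for 11 contrasts of which 2 were interactions. Folds against 0 counts used a floor of 3 counts over the group; counting intervals cover counting error only. The procedure was tested on simulated data, in WT cisplatin saline over WT naive with 3 samples in each of these groups. Called were 51% of 100 genes changed 4-fold and 70% of 100 changed 8-fold, with 2 other genes called among 19562. The changed genes all averaged at least 1 CPM over the samples, and the other genes had 1 mean in all groups. Recovery of genes under that level was not tested. Shares of all genes called by DESeq2 are over the genes it gave an adjusted p. Alternatives were RLE scaling, DESeq2 1.42.0, other filters, smaller fits, left-out samples, technical replicates left out, limma 3.58.1 voom on libraries, and WT cisplatin saline 4 alone.

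The members and lists were chosen with earlier results of these data known. Values in every sample were given for Mki67 and Top2a, for up to 3 members per role with the smallest p in either cisplatin saline comparison, and for members called elsewhere; list genes were named where called, up to 5 per list, and Cdkn1a was added after its values were seen. Promoters of 4 genes were chosen after the results were seen. Sequences come from RefSeq promoters of GRCm38.p6, matched by symbol.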

Additional observations from a re-analysis of the deposited data

How the results depend on the processing

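In WT cisplatin saline over WT naive 5 members were called. DESeq2 called 18, no filter 8, a filter at a mean of 5 CPM 10 and a fit of only those groups 1. Sums of technical replicates 2 and 3 or 1 and 3 gave 2 each. Leaving out 1 sample gave 3 to 6. The calls of Top2a and Cenpk were kept in each of those fits but lost in some of the other alternatives. In ABC-imKO cisplatin saline over ABC-imKO naive (1 called) DESeq2 called 3, the fit of only those groups 0, sums of technical replicates 1 and 3 or 1 and 2 gave 0 each, and left-out samples 0 to 1. In WT cisplatin AIBP over WT naive (4 called) DESeq2 called 14, the 5 CPM filter 7, sums of technical replicates 1 and 3 or 1 and 2 gave 2 each, and left-out samples 0 to 5. In ABC-imKO cisplatin AIBP over ABC-imKO naive (1 called) DESeq2 called 6, no filter 2, the 5 CPM filter 3, the fit of only those groups 0, sums of technical replicates 1 and 3 or 1 and 2 gave 0 each, and left-out samples 0 to 2. DESeq2 called 4 in ABC-imKO naive over WT naive. In the genotype difference in the cisplatin response DESeq2 called 3 and no filter 1. Smaller fits and sums hold fewer samples or counts, and otherwise the cause was not tested. All of these are counts of members alone. The share of all genes called in the same fit is given above for DESeq2 and not for the other fits. Their counts therefore do not show whether the members changed apart from all genes.

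Limma-voom was run on the 51 technical libraries of the 17 samples with the technical replicate number as a replicate block and a within-sample correlation of 0.0886, so it has more values than samples. It called 21 members (11.1% of all genes) in WT cisplatin saline over WT naive, 19 (6.91%) in WT cisplatin AIBP over WT naive, 6 (11.2%) in ABC-imKO cisplatin AIBP over ABC-imKO naive, 2 (1.78%) in ABC-imKO over WT cisplatin saline and 3 (0.284%) in the genotype difference in the cisplatin response. Sample numbers do not pair the genotypes (correlations of deviations -0.18 to 0.15 over 8 pairs and 8570 genes), and with the sample number as a replicate block 0 members were called in the genotype comparisons.

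None of the called members changed direction under any alternative run. Single-gene values were computed under each alternative for 25 of the 48 members in the cisplatin saline comparisons. Of those not called, 9 turned direction in ABC-imKO cisplatin saline over ABC-imKO naive. Under the replicate block of limma-voom the log2 fold change was -1.24 for Ccnb1 and -0.73 for Ndc80. With technical replicates 2 and 3 it was -0.41 for Aurkb, 0.0066 for Stmn1 and 0.43 for Tpx2. With 1 and 3 it was 0.40 for Prc1, and with 1 and 2 it was -0.24 for Ndc80, 6.002 for Kif4 and 0.058 for Kif20a. With 1 sample left out the range was -0.21 to 0.48 for Ccnb1, -0.65 to 0.083 for Smc2, -0.14 to 0.44 for Aurkb, -2.30 to 0.75 for Ndc80, -1.92 to 0.28 for Kif4, -1.88 to 0.15 for Tpx2, -0.34 to 0.28 for Stmn1 and -1.21 to 0.40 for Kif20a. With WT cisplatin saline 4 alone, Bub1 was at -3.91.

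Counts were present in fewer than 40 of 51 libraries for 15 members; the part of depth in this was not tested.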
